A study of Danio rerio with 2 samples.

Results

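The genes slc2a11b and slc2a15b belong to the SLC2 (GLUT) family of membrane proteins, and both were read on 2 Affymetrix zebrafish arrays of fin pigment cells. They are 2 of the 8793 genes with a symbol of their own on the array and are covered by 3 of its 15502 transcript probe sets, 1 for slc2a11b and 2 for slc2a15b. A probe set is a group of short probes against 1 transcript, summarised as a single signal. The genes were picked by symbol, with earlier results of these arrays known, so every value here is a description.

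One array carried total RNA from a sample titled melanophores, the black melanin-making cells, and the other from a sample titled xanthophores, the yellow cells that hold pteridines and carotenoids. Both samples were wild-type pet-shop adults over 2 months old, and the labels list the same handling for both. Per the labels, the caudal and anal fins of 1000 fish were digested overnight at 4 °C with trypsin at 2.5 mg/ml and then with collagenase before the cells were separated. Cells of many fish were thus pooled, each preparation went onto a single array, and none of the differences below could be tested or checked against a replicate. The source name and cell type fields give each sample the opposite cell type from its title. The arrays are called melanophore-titled and xanthophore-titled, and each ratio is melanophore-titled over xanthophore-titled.

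Proteins of the SLC2 family carry sugars and related small molecules across membranes down their gradient, and the family is best known for the glucose carriers that feed glycolysis. In medaka, loss of slc2a15b in the mutant leucophore free and of slc2a11b in the mutant white leucophore disturbs the pigment cells called leucophores, and both genes also bear on the pigment of larval xanthophores. In pigeons, SLC2A11B has been linked to the pteridine colour of the iris. The molecule that either protein carries in a pigment cell is not given in the labels, and the arrays do not measure it.

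The xanthophore markers ran against the titles, and no measured melanophore marker passed 2-fold towards its own title. A gene counted as measured if the brighter of its signals was at or above the median of the array it came from (47.2 for the melanophore-titled array, 43.5 for the other), and a signal under that median was raised to it before a ratio was taken. All 5 xanthophore markers with a probe set were measured, and 4 of them passed 2-fold towards the melanophore-titled array, with summed signals of 6292 there and 359 on the other. Of all 5501 measured genes, 15.5% passed 2-fold that way and 4.09% the opposite way. Most of the marker sum of 6292 came from bco1 (3076) and scarb1 (2207). The dim signals of csf1ra (1.9) and pax7a (23.4) lay under the median, so both were measured only through the melanophore-titled array. The markers were listed with earlier results of these arrays known, so the count is a description. Of 5 melanophore markers with a probe set, mc1r and pmelb were not measured and 3 were. Among the measured ones dct, an enzyme of melanin synthesis, stood at 11.8-fold towards the xanthophore-titled array. The receptor kita (90.4 and 97.8, melanophore-titled first) read alike on both. Tyrosinase tyr (48.4 and 39.2) lay near both medians and was measured only through the melanophore-titled array, so its ratio says little. Every direction below is therefore one between titles.

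The signal of slc2a11b was 1278 on the melanophore-titled array against 207 on the xanthophore-titled one. The melanophore-titled array was thus the brighter for this gene by 6.17-fold, a log2 ratio of 2.63. Both signals lay above the median of their array, so neither was raised. This was the array with the brighter xanthophore markers. Ordered by brightness within its array, the probe set stood 1136th of 15502 on the melanophore-titled array, in the top 7.33%, and 3469th on the xanthophore-titled array, in the top 22.4%. Brightness depends on the probes as well as on the transcript, so a place in this order says how strong a reading was and does not rank the transcripts.

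The brighter probe set of slc2a15b had a signal of 3444 on the melanophore-titled array against 4349 on the xanthophore-titled one. It was therefore 1.26-fold brighter on the xanthophore-titled array, a log2 ratio of -0.34. It was among the brightest readings of both arrays, 328th on the melanophore-titled array (top 2.12%) and 182nd (top 1.17%) on the other. The dimmer probe set read 79.6 on the melanophore-titled array against 133 on the xanthophore-titled one, a log2 ratio of -0.74 or 1.67-fold in the same direction. It stood 6384th (top 41.2%) and 4476th (top 28.9%), above the median of both arrays but under the 75th percentile of both, 234 and 173.

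The probe sets of slc2a15b differed far more in brightness than in ratio. The brighter one was 43.3 times as bright as the other on the melanophore-titled array against 32.6 times on the xanthophore-titled one, a gap of 5.23 in mean log2 signal. Among 1192 genes with exactly 2 probe sets the median gap was 2.01, and 102 of them (8.56%), slc2a15b included, had a gap as wide. The log2 ratios of the pair differed by 0.41. In 491 genes with exactly 2 measured probe sets the median difference was 0.38, and 46.8% of them differed by as much. A probe set was measured by the same rule as a gene. These genes could have further, unmeasured probe sets, and their ratios were taken after the floor. The pair's mean log2 ratio was -0.54, or 1.45-fold towards the xanthophore-titled array.

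**Figure D1:**
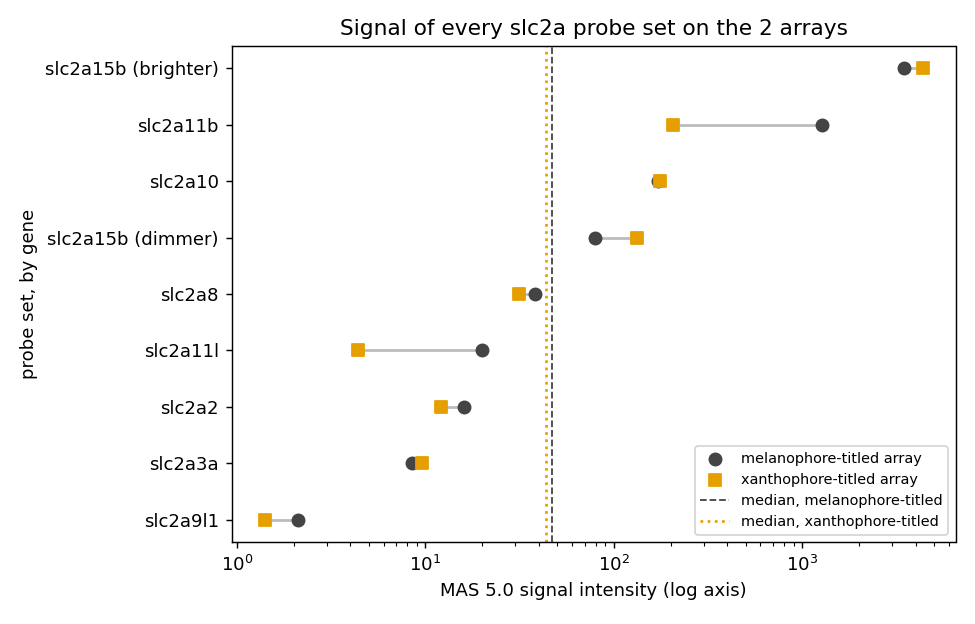
MAS 5.0 signal intensity (log axis) of each slc2a probe set, named by gene, with circles for the melanophore-titled array and squares for the xanthophore-titled array, 1 array each, and vertical lines at the array medians of 47.2 and 43.5. The slc2a11b points lie far apart (1278 and 207), while both slc2a15b probe sets have the xanthophore-titled point to the right.

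The 2 genes thus differed from each other in their ratio. The log2 ratio of slc2a11b exceeded that of slc2a15b by 2.96, a factor of 7.79 between the folds. Multiplying all signals of an array by 1 number cannot move this difference. The error available is technical, the spread of the log2 ratios of probe sets about the mean of their gene. For probe sets past the 75th percentile this SD was 0.38 (201 genes), a factor of 1.30. For those past the median it was 0.46 (597 genes). The gap between the genes is wider than either SD, though each is the SD of 1 probe set and the gap carries the error of 2. The -0.34 of slc2a15b, as deposited, is smaller than 1 such SD. With the spike-in controls of the next paragraph set equal it is -0.72, which is larger. An offset shared by a whole array is not part of these SDs, so they cannot decide whether slc2a15b differed between the arrays. Spread between fish or between preparations is not part of either value.

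The arrays also differed in overall brightness. The 18 spike-in control probe sets leaned to the melanophore-titled array by 0.38 on the log2 scale at the median (lowest 0.18, highest 0.97). The 2929 genes whose brighter signal passed the 75th percentile leaned the same way, with a median of 0.46. With the spike-ins set equal, slc2a11b stood at 4.74-fold towards the melanophore-titled array. On that scale slc2a15b stood at 1.65-fold towards the xanthophore-titled array by its brighter probe set and 2.18-fold by its dimmer one. With ribosomal protein genes set to equal medians instead, the brighter slc2a15b probe set turned to 1.12-fold in favour of the melanophore-titled array, and the dimmer one stood at 1.18-fold in favour of the other. The direction of the brighter slc2a15b probe set therefore depends on the scaling, and that of slc2a11b did not under any scaling tried.

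**Figure D2:**
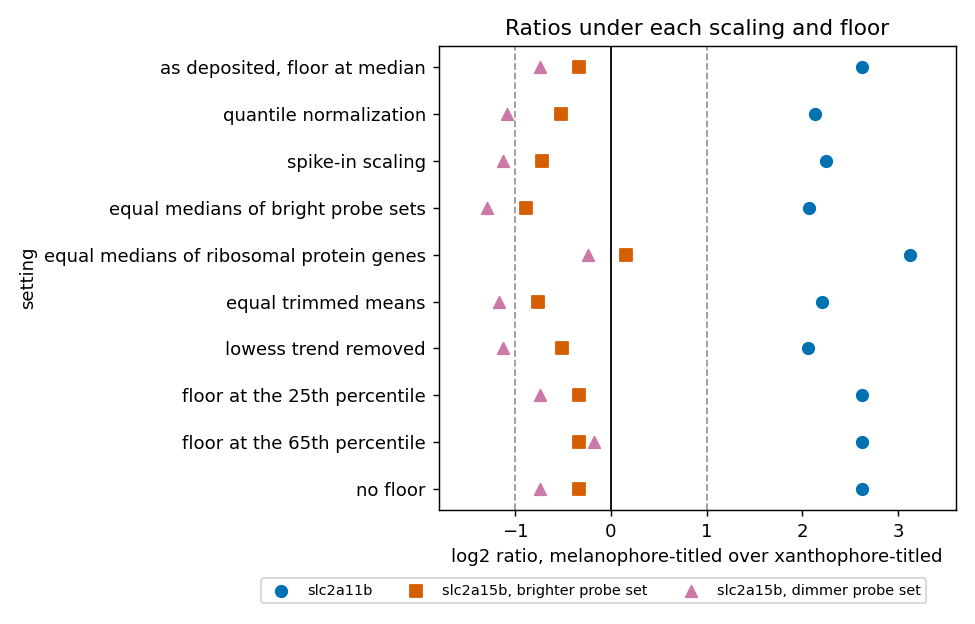
Log2 ratio (melanophore-titled over xanthophore-titled, x axis) of slc2a11b and of both slc2a15b probe sets under each scaling and floor (y axis), with dashed lines at 2-fold and a solid line at equal signal. The slc2a11b points stay between 2.06 and 3.12, and the brighter slc2a15b probe set between -0.89 and 0.16.

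Set against the other genes of the arrays, slc2a11b had the 47th largest ratio towards the melanophore-titled array among the 2929 genes past the 75th percentile, 98.4% of which had a lower one. In this set 21.1% of genes leaned that way by at least 2-fold and 3.72% by at least 4-fold. For slc2a15b, 16.4% of the genes had a lower ratio. In the opposite direction, 6.18% of the genes leaned by at least 2-fold and 2.15% by at least 4-fold. Since ratios drifted with brightness, each gene was also placed among genes within 0.5 of its mean log2 signal. Of 747 such genes around slc2a11b, which had a median log2 ratio of 0.53 (quartiles 0.13 and 0.95), 13 had a higher ratio. The 204 genes around slc2a15b had a median of 0.08 (quartiles -0.37 and 0.51), and 26.0% of them had a lower ratio, so slc2a15b lay just above the lower quartile.

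The other SLC2 genes on the array gave little signal. Of 6 others, only slc2a10 was measured, with signals of 173 (melanophore-titled) and 175 (xanthophore-titled), a log2 ratio of -0.02. Its human counterpart GLUT10 is known from arterial tortuosity syndrome. The rest lay under the median on both arrays, so no fold is given for them. The intracellular carrier slc2a8 read 38.0 and 31.2, in the order melanophore-titled, xanthophore-titled, and the liver and islet glucose carrier slc2a2 read 16.0 and 12.1. The neuronal-type carrier slc2a3a read 8.5 and 9.6, and slc2a9l1, named after the urate carrier GLUT9, 2.1 and 1.4. The like-named slc2a11l read 19.9 and 4.4. Counting the whole family, 3 of 8 genes were measured, of which 1 (slc2a11b) passed 2-fold towards the melanophore-titled array and 0 passed it in the other direction. Among all 5501 measured genes, 15.5% passed 2-fold towards the melanophore-titled array and 4.09% towards its counterpart.

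Other sugar carriers were mostly unmeasured too. Of 17 listed genes of the SGLT, SLC37, SLC45 and SWEET families, 4 had a probe set and 1 was measured. This was slc37a2, a sugar-phosphate exchanger, with 449 on the melanophore-titled array against 210, which is 2.14-fold as deposited but 1.65-fold with the spike-ins set equal. The dim ones were slc37a4a and slc37a4b, homologues of the glucose-6-phosphate carrier of the endoplasmic reticulum, and the monocarboxylate carrier slc5a12.

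Enzymes that take sugar into metabolism showed smaller ratios than slc2a11b. Of 24 listed, 9 had a probe set and 5 were measured, and 2 of these 5 passed 2-fold towards the melanophore-titled array and 0 in the other direction, where 15.5% and 4.09% of all measured genes did. The hexokinase hk1, which traps glucose as its phosphate, read 2130 on the melanophore-titled array against 1170 (1.82-fold), and hk2 read 426 against 351 (1.21-fold). Phosphoglucomutase pgm1, which links glucose phosphates to glycogen, stood at 2.39-fold and the phosphofructokinase pfkpa at 2.07-fold. The isomerase gpia was at 1.17-fold. The list's median log2 ratio was 0.86, against 0.36 over all measured genes. With the spike-ins set equal, 0 of the 5 passed 2-fold in either direction, a scale on which the share of all measured genes was not computed.

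Genes of the xanthophore and leucophore programme leaned to the array on which slc2a11b was brighter. The list holds pteridine, carotenoid and purine genes and lineage regulators. Of 19 listed, 12 had a probe set and 10 were measured, and 7 of these 10 passed 2-fold towards the melanophore-titled array and 0 in the other direction, both as deposited and with the spike-ins set equal. As deposited, 15.5% and 4.09% of all measured genes did so, and with the spike-ins set equal these shares were not computed. The list's median log2 ratio was 2.28, against 0.36 over all measured genes. The 7 ran from at least 2.73-fold for csf1ra, the receptor xanthophores need, over gart, gch2, paics, atic and scarb1 to 32.3-fold for bco1. The pterin-recycling enzymes pcbd1 (1.20-fold) and qdprb.1 (1.63-fold) did not pass it. The nearest in ratio to slc2a11b was gch2, the first enzyme of the pteridine route, which read 804 on the melanophore-titled array against 141 (5.72-fold). The regulator pax7a, whose medaka mutant lacks leucophores, read 86.7 against 23.4, at least 1.99-fold with the dim signal at its floor. The regulator sox5, which steers cells between the xanthophore and leucophore fates in medaka, lay under the median on both arrays (40.5 and 33.0). The list was compiled with the earlier results in view and includes genes known to be high on this array, so its count lends no weight to the slc2a11b value. It also includes all 5 xanthophore markers counted above, so the counts of these lists are not separate results.

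**Figure D3:**
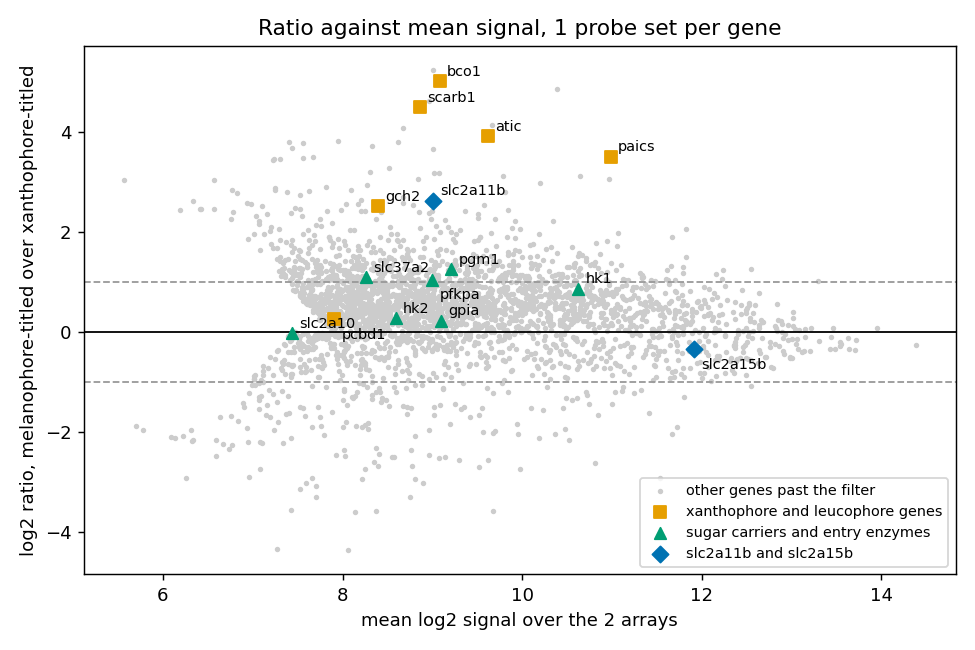
Log2 ratio (melanophore-titled over xanthophore-titled, y axis) against mean log2 signal over the 2 arrays (x axis) for the 2929 genes past the 75th percentile, 1 probe set per gene, with dashed lines at 2-fold. The point for slc2a11b lies near gch2 and above the sugar carriers and entry enzymes, and slc2a15b, drawn by its brighter probe set, lies at the bright end just under equal signal.

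Markers of endothelium and of connective tissue also differed between the arrays. Summed signals are given with the melanophore-titled array first. Each count of markers past 2-fold as deposited stands against 15.5% of all measured genes towards that array and 4.09% towards the other. With the spike-ins set equal those shares were not computed, so counts on that scale have no share beside them. Endothelial markers were brighter where slc2a11b was, with 5 of 6 measured markers past 2-fold and sums of 4033 and 931. Of these sums plvapb gave 2052 and 493, and kdrl gave 1098 and 253. The markers fli1rs and tie1 were measured only through the melanophore-titled array, and tek was not measured. With the spike-ins set equal the count was 4, fli1rs falling to at least 1.94-fold. Connective tissue and bone markers went the other way, with 9 of 9 measured markers past 2-fold and sums of 5408 and 21947; sp7 and runx2b were not measured. The erythrocyte markers summed to 133 and 1205, with 2 of 5 measured and both past 2-fold towards the xanthophore-titled array. Of these sums hbaa1 alone gave 24.9 and 956.5, and it was measured only through the xanthophore-titled array. The leukocyte markers summed to 723 and 534, with 5 of 8 measured, 2 of them past 2-fold towards the melanophore-titled array and 1 towards the other. The latter, cxcr4b (40.9 and 114.4), was measured only through the xanthophore-titled array, as was lyz (3.8 and 85.7). Schwann cell and neuron markers summed to 3147 and 2334, of which uchl1 alone gave 3021.5 and 2262.4. Of these 5 markers 2 were measured, and 1 of them, mbpa, passed 2-fold towards the melanophore-titled array. It stood at least at 2.09-fold, with its dim signal of 37.0 raised to the floor, and was measured only through the melanophore-titled array. Keratinocyte markers summed to 24152 and 19999, of which krt8 alone gave 11558 and 10947. Of 12 keratinocyte markers 10 were measured, and 3 passed 2-fold towards the melanophore-titled array (cdh1 at 4.20-fold, krt5 at 2.96-fold and cldnb at least 2.80-fold) and 0 the other way. With the spike-ins set equal the counts past 2-fold were 3 and 1 for keratinocytes, melanophore-titled first. They were 1 and 2 for leukocytes and 0 and 0 for Schwann cells and neurons. The keratinocyte marker past 2-fold towards the xanthophore-titled array on that scale was agr2, at 2.37-fold. The iridophore marker ednrba, the only one of 7 with a probe set, read 88.9 and 84.9. The part of these cells in the slc2a11b and slc2a15b signals was not tested, and in pooled RNA fewer cells of a type and less transcript per cell cannot be told apart.

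The genes whose pair of signals lay closest to each member were also found, by distance between log2 signals over the 2 arrays, of which there are too few for a measure of shared pattern. Nearest to slc2a11b was si:ch211-137a8.4 at a distance of 0.05, followed by pald1a at 0.15, the small GTPase rap2c at 0.19, pgp, a phosphoglycolate phosphatase, at 0.26 and impdh1b, an IMP dehydrogenase of guanine nucleotide synthesis, at 0.27. Nearest to slc2a15b were the calcium-binding annexin anxa4 at 0.08, the MAP kinase phosphatase dusp2 at 0.09, the ribosomal protein rps18 at 0.09, icn at 0.12 and zgc:162730 at 0.13. In the gene order of the RefSeq annotation of assembly GRCz12tu, no gene with an slc2a symbol lies within 3 protein-coding genes of either member. Some of these neighbours carry only a locus number as a name, and most had no probe set under their own symbol. Of those with a probe set, chek2 near slc2a11b was the only one measured, with 60.7 on the melanophore-titled array against 49.6. Near slc2a15b, cenpk, fgf8b and poll lay under the median on both arrays.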

How the data were processed

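The authors deposited MAS 5.0 signal intensity per probe set on a linear scale. Per the labels' protocols, labelling, hybridisation, scanning and MAS 5.0 processing were done by an outside service, and the submitters' processing notes name MAS5. Not given in the sources used here are the scaling target, detection calls, design build and probe sequences. Arrays were grouped by title. Gene names came from the supplied platform annotation, with 1 symbol updated by NCBI gene ID; 10795 of 15502 transcript probe sets have 1 symbol, 135 several and 4572 none. Signals under an array's median were raised to it before the log2 ratio. A gene took its probe set with the highest mean log2 signal. A gene was measured if the brighter of its signals was at or above the median of that array, and differences were counted at 2-fold or 4-fold. With 1 array per group the number of arrays limits the precision, and no test was possible. Members and lists were chosen with earlier results of these data known. Genes named are the members, all other SLC2 genes, measured members of the sugar and xanthophore lists, examples of the marker lists, 5 nearest genes per member and, chosen after their values were seen, chromosomal neighbours and unmeasured list members. Alternatives covered scaling, floor, filter, fold and choice of probe set. Calculations used Python 3.11.15 with numpy 2.4.6, pandas 2.3.3, scipy 1.17.1 and statsmodels 0.14.6 and were checked on simulated data.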

Additional observations from a re-analysis of the deposited data

How the results depend on the processing

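The log2 ratio of slc2a11b stayed positive and past 2-fold in all 11 alternatives run. Those of floor and choice of probe set left it at 2.63 and could not move it. The gene has 1 probe set, which lay above every floor, so only the changes of scaling could alter the ratio. The slc2a11b ratio was 2.13 after quantile normalization and 2.07 with equal medians of bright probe sets. It was 3.12 with the median ratio of ribosomal protein genes set to equal signal. With equal trimmed means it was 2.20, and with a lowess trend removed 2.06. The ratio of slc2a15b was -0.89 with equal bright medians, -0.76 with equal trimmed means and 0.16 with the ribosomal scaling. The difference between the 2 genes was 2.57 with the lowess trend removed, and otherwise moved by less than 0.38. The dimmer slc2a15b probe set, checked in alternatives chosen after seeing the data, ran from -1.30 to -0.18, the latter a bound with the floor at the 65th percentile. The count of other sugar carriers 2-fold brighter on the melanophore-titled array fell from 1 to 0 after quantile, spike-in, equal bright median, equal trimmed mean and lowess scaling, and at 4-fold, because slc37a2 lay near 2-fold. The SLC2 family count stayed at 1 in all 13. For the lists added later, counts towards the melanophore-titled array ran from 5 to 9 xanthophore and leucophore genes and from 0 to 3 sugar entry enzymes. The 5 came with the 75th percentile filter, under which fewer genes were counted and 21.1% of the 2929 genes past it passed 2-fold that way. Under the changed scalings and floors the share of all genes was not computed. The counts under those settings therefore have no share beside them and cannot be set against all genes. No paired analysis was possible because each group has 1 array. A single array per preparation and the absence of detection calls in the table limit every value.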
